A study of Mus musculus with 10 samples.

Results

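Folate enters cells through carriers and receptors, and it is kept there by a chain of added glutamates. The genes described here are those of uptake and retention: Slc19a1, Slc46a1, Slc25a32, Folr1, Folr2, Folr4, Fpgs and Ggh. They were found by taking every non-control array probe that carries 1 of these gene names, which gave 11 probes for the 8 genes among 41174 probes. Of these, 9 probes for 7 genes were kept for testing, as were 22302 probes for 14457 genes in all. The test took in only probes that the scanner scored as well above background on both arrays of at least 1 group. Both Folr2 and a second Folr1 probe missed that mark. Folr4 passed through leukemia 760 alone and Folr1 through leukemia 713 alone, so for these genes the filter itself favoured a higher level in a leukemia.

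Mammalian cells cannot make folate and import it, mainly by the reduced folate carrier (Slc19a1), by a proton-coupled transporter that works best in acid surroundings (Slc46a1), or by receptors anchored in the outer membrane (Folr1 and Folr2). Inside the cell, Slc25a32 carries folate into mitochondria, Fpgs adds glutamates that stop folates from leaving, and Ggh removes them. In B cell acute lymphoblastic leukemia (B-ALL) the same carrier and the same glutamate chain govern uptake and retention of the antifolate drug methotrexate.

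Gene expression was measured with 1-colour oligonucleotide arrays on 10 samples, 2 in each of 5 groups. The 3 leukemia groups were B-ALL cells from lymph nodes of mice 686, 713 and 760, each with 1 intact copy of Ebf1 and of Pax5 (Ebf1+/- Pax5+/-, called dHet), genes of B cell transcription factors. The dHet pro-B group was grown from c-Kit-positive fetal liver cells of genotype Ebf1+/- Pax5+/- Rag2-/- in short-term culture on OP9 stromal feeder cells with the cytokines IL-7, Flt3L and SCF. The wt cells were pro-B cells sorted as Fraction BC from control mice, with both copies of Ebf1 and Pax5 intact. The leukemias thus differed from wt cells also in tissue and genotype, and from dHet cells also in tissue, culture and Rag2, and these cannot be told apart from leukemia. The 2 arrays of a leukemia carry the number of 1 mouse. The labels do not say whether those of a pro-B group came from separate animals or cultures, so the spread within a group may be technical.

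A level is the log2 of the spot's processed signal minus that of the array's 75th percentile, so 0 is the signal that 1 probe in 4 exceeds. Between 35.7% and 52.4% of probes were well above background on an array, and no spot was saturated. Of 15 B lineage marker genes, 13 to 15 were well above background on each leukemia array and 15 on each pro-B array. Against wt cells 9 of the 15 were lower in the leukemias and 3 higher. Among all 14457 genes, each at its brightest kept probe, 27.6% were lower and 31.3% higher in that comparison. Replicate 1 of the 3 leukemias shared slide 1 and scan day 1, replicate 2 shared slide 2 and day 2, and the 4 pro-B arrays shared slide 3, also on day 2. Slide and leukemia therefore cannot be told apart, but day 2 holds all 5 groups, and values from day 2 alone are given below. The 2 dHet pro-B arrays did not match in sex-linked genes and so were not of the same RNA. On slide 1, unlike slide 2, each leukemia also had transcripts of the opposite sex well above background: Xist was at -1.26 and -2.51 in leukemias 686 and 713, in which Y-linked genes were high, and Ddx3y at -3.13 in leukemia 760, which had Xist. The part of this in the slide 1 levels was not tested.

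The probe sequences below show what was read at 2 places in the Slc19a1 transcript that changed by unlike amounts, at a Ggh probe whose bases span an intron, and for Folr2 and Folr4, dim receptor genes with a single probe each. They are copied from the scanner files, in lower case throughout, and positions are counted from the first base of the transcript named in the array's design. Coordinates are on mouse build mm9.

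Slc19a1, base 2044, first 30 bases (probe at chr10:76512874-76512933, plus strand): caggccactgcgagtctgggttgtctattg
Slc19a1, base 300 (chr10:76501259-76501318, plus strand): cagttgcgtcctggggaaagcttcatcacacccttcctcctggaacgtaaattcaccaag
Ggh, base 613 (chr4:19981345-19985138, plus strand): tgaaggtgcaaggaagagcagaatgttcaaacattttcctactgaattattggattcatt
Folr2, base 752 (chr7:108988771-108988830, minus strand): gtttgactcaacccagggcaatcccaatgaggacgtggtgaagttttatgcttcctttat
Folr4, base 366 (chr9:14706235-14706840, minus strand): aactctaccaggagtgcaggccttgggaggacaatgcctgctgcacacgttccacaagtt

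The 60 bases of the Ggh probe cover 3794 bases of genome, and those of the Folr4 probe 606, so both match spliced RNA. The other Ggh probe, at base 1042 of the transcript, lies on chromosome 4 from 19992975 to 19993034. The remaining probes lie on chromosome 11 from 78285032 to 78285091 (Slc46a1), chromosome 15 from 38926713 to 38926772 (Slc25a32) and chromosome 2 from 32538183 to 32538242 (Fpgs). Those of Folr1 lie on chromosome 7 from 109006929 to 109006988 (base 1247) and from 109016972 to 109017031 (base 362). Signals of different probes are not on a common scale, so levels are compared only within a probe.

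The leukemias held far more signal for the main folate carrier and for the enzyme that traps folate than either kind of pro-B cell, more for the mitochondrial carrier, and less for the proton-coupled carrier. Against wt pro-B cells, 5 of the 9 probes were higher, 1 was lower and 3 did not pass the test. Among all 22302 probes 27.7% were higher and 31.0% lower, so passing in either direction is common in this comparison (58.7%). The median change of the 9 probes was 0.95 on the log2 scale, beside -0.07 for all probes. By genes, each at its brightest kept probe, 4 of 7 were higher (Slc19a1, Slc25a32, Folr4 and Fpgs), 1 lower (Slc46a1) and 2 did not pass (Folr1 and Ggh). Folr4 and Folr1 were kept only through a leukemia, and without them 4 of 7 probes and 3 of 5 genes were higher and 1 was lower.

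Against dHet pro-B cells, 4 of the 9 probes were higher, 1 was lower and 4 did not pass, where 19.3% of all probes were higher and 27.4% lower. The median change of the 9 was 0.69, beside -0.15 for all probes. Both comparisons share the leukemia samples and 1 fit, so they are not separate evidence. The difference between them in Folr4, the probe that passed against wt and not against dHet cells, is the difference between the pro-B groups, which did not pass (adjusted p = 0.245 in limma).

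Slc19a1, the reduced folate carrier, showed the largest change of the 9 probes in both comparisons. At base 2044 its level was 4.73 and 4.19 in leukemia 686, 4.54 and 3.72 in leukemia 713, and 4.94 and 4.11 in leukemia 760, against 1.46 and 1.50 in dHet pro-B and 0.63 and 0.56 in wt pro-B cells. All 6 leukemia arrays lay above all 4 pro-B arrays, and in each mouse the array of slide 1 was the higher. The leukemias averaged 4.37 ± 0.21 (SD, n = 3 mice) and wt cells 0.59 ± 0.05 (SD, n = 2 arrays), a change of 3.78 ± 0.16 (SE) or 13.7-fold (limma, adjusted p = 1.77e-04). Against the dHet mean of 1.48 ± 0.03 (SD, n = 2 arrays) the change was 2.89 ± 0.16, or 7.41-fold (adjusted p = 4.82e-04). By mouse the excess over wt cells ran between 11.6-fold in leukemia 713 and 15.2-fold in leukemia 760. On scan day 2 alone the changes were 3.41 over wt and 2.52 over dHet cells, and both passed (adjusted p = 1.97e-04 and 7.46e-04). That day's fit called 26.0% of all probes higher and 28.9% lower against wt cells, and 17.6% higher and 25.8% lower against dHet cells.

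The second Slc19a1 probe, near the 5′ end of the transcript at base 300, moved the same way by far less. Its levels were -2.22 and -0.98 in leukemia 686, -2.48 and -1.25 in leukemia 713, and -2.14 and -1.43 in leukemia 760, against -2.33 and -2.85 in dHet pro-B and -2.54 and -2.86 in wt pro-B cells. The 3 arrays of slide 2 stood clear of the pro-B arrays, whereas those of slide 1 lay close to them, and 1 of these (leukemia 686) was not well above background. The change was 0.95 ± 0.21 over wt (1.93-fold, limma adjusted p = 0.0104) and 0.84 ± 0.21 over dHet cells (1.79-fold, adjusted p = 0.0209). This call was lost with normexp background correction (0.35, adjusted p = 0.292 over wt and 0.39, adjusted p = 0.291 over dHet) and with slide as a random block (adjusted p = 0.211 and 0.309), but on scan day 2 alone the changes were 1.48 and 1.37 and passed. The fall in the change from one end of the transcript to the other has no test here, and the 2 probes differ in distance from the 3′ end and in sequence.

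Slc46a1, the proton-coupled folate transporter, was the only probe of the 9 to pass as lower in the leukemias. Its levels were -3.49 and -4.41 in leukemia 686, -4.00 and -4.73 in leukemia 713, and -3.54 and -3.82 in leukemia 760, against -2.43 and -2.32 in dHet pro-B and -2.08 and -1.89 in wt pro-B cells. In measured level every leukemia array lay below every pro-B array, but only 3 of the 6 were well above background. Replicate 1 of leukemia 686 was not, and the lowest level scored as well above background on that array was -2.13. This is above both dHet levels, so the order of that array and the dHet arrays is not settled. The change was -2.01 ± 0.22 against wt (4.03-fold lower, limma adjusted p = 9.25e-04) and -1.62 ± 0.22 against dHet cells (3.08-fold lower, adjusted p = 0.00305). With the undetected arrays set to the lowest level that counted as well above background, Slc46a1 was 3.24-fold lower than in wt cells. The size depended on the background method: with normexp the change was -0.75 against wt (adjusted p = 0.0485) and -0.61 against dHet cells, where it no longer passed (adjusted p = 0.128), and in the authors' deposited table it was -0.42 and -0.36. In tissue, fewer cells of a kind with the transcript and less RNA per cell cannot be told apart in such data, for this gene and all others.

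**Figure D1:**
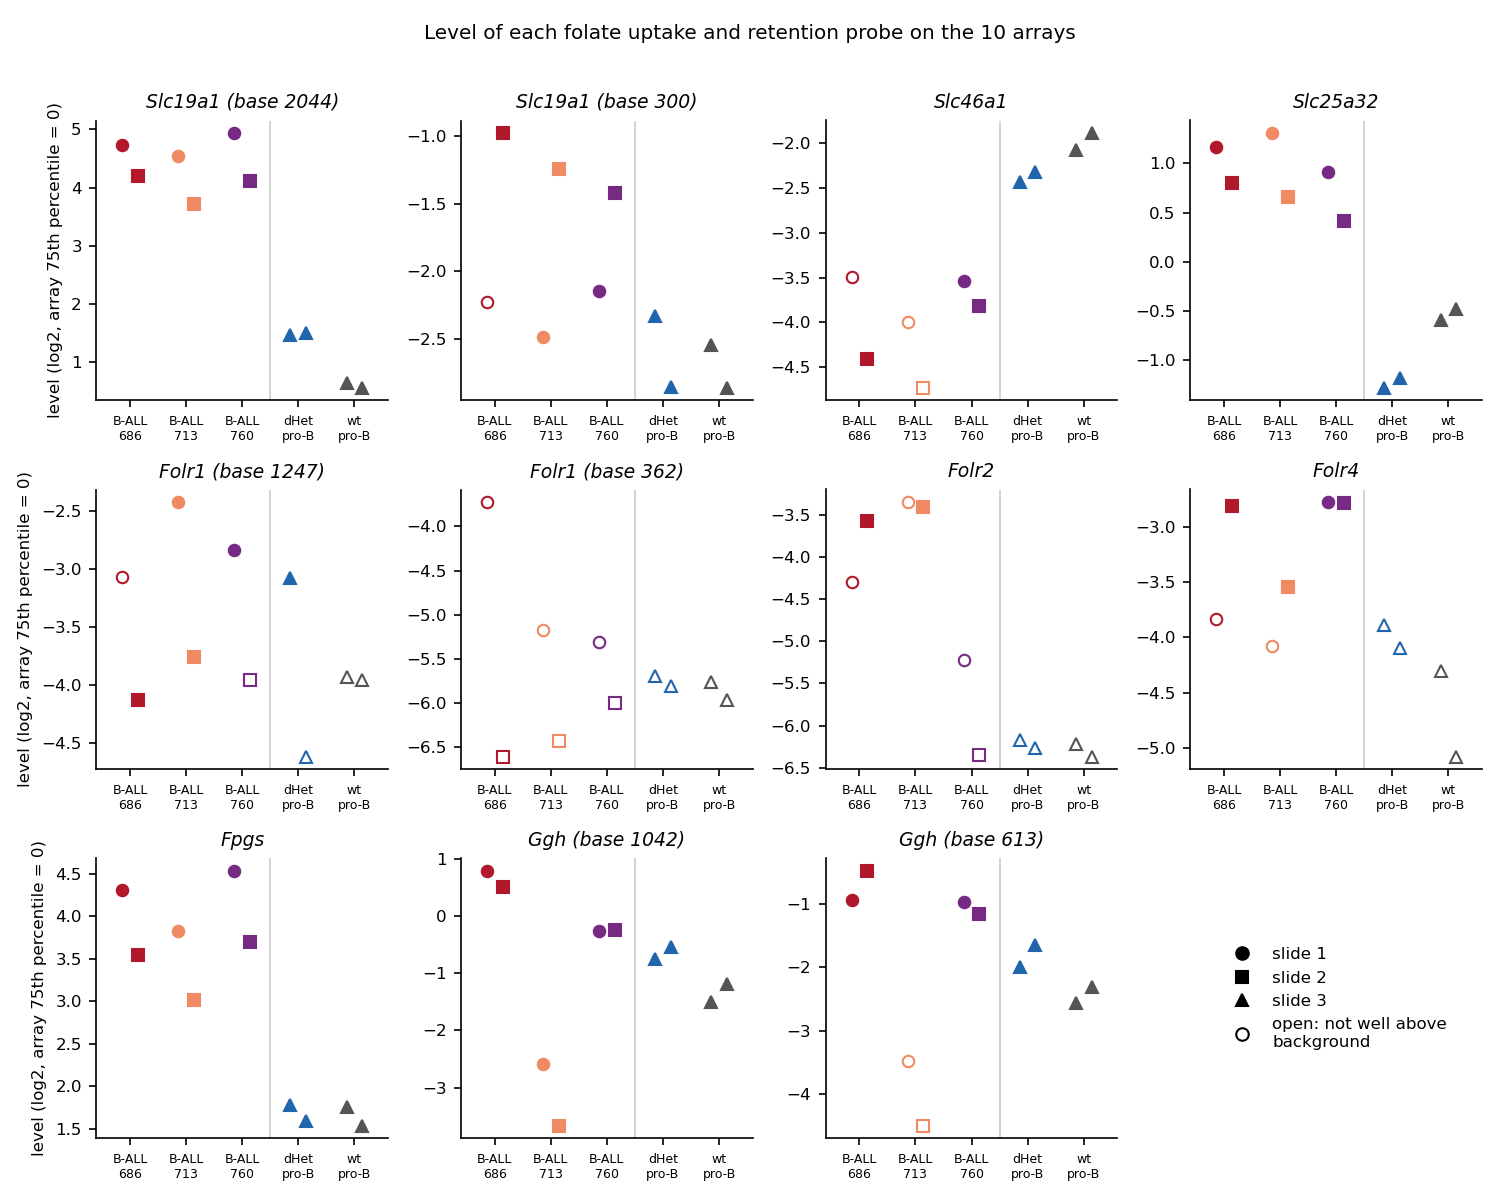
Level of each of the 11 probes (y axis, log2, array's 75th percentile at 0) on the 10 arrays, by group from left to right: leukemias 686, 713 and 760, dHet pro-B and wt pro-B. Marker shapes are slides and open markers are arrays on which the probe was not well above background. The 6 leukemia arrays stand above all 4 pro-B arrays for Slc19a1 at base 2044, Slc25a32 and Fpgs. For Slc46a1 they lie below them in measured level, with some of the leukemia markers open, while Ggh is low in leukemia 713 only.

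Slc25a32, which brings folate into the mitochondrion, was also higher in every leukemia array than in every pro-B array. Its levels were 1.16 and 0.80 in leukemia 686, 1.31 and 0.66 in leukemia 713, and 0.91 and 0.41 in leukemia 760, against -1.28 and -1.18 in dHet pro-B and -0.59 and -0.48 in wt pro-B cells. The change was 1.41 ± 0.15 over wt (2.66-fold, limma adjusted p = 8.94e-04) and 2.10 ± 0.15 over dHet cells (4.30-fold, adjusted p = 6.96e-04). Here the dHet cells had the lowest mean, whereas for Slc19a1 the wt cells had it. On scan day 2 alone the changes were 1.16 and 1.85 and both passed (adjusted p = 0.00214 and 0.00117).

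The membrane receptors were dim throughout. Folr1, the receptor best known from epithelia, had at base 1247 levels of -3.07 and -4.13 in leukemia 686, -2.43 and -3.77 in leukemia 713, and -2.84 and -3.96 in leukemia 760, against -3.08 and -4.62 in dHet pro-B and -3.93 and -3.96 in wt pro-B cells. The groups overlapped, and 4 of 6 leukemia arrays, 1 of 2 dHet arrays and no wt array had the probe well above background. Its change of 0.58 ± 0.45 over wt cells (95% interval -0.52 to 1.68, limma adjusted p = 0.302) and of 0.48 ± 0.45 over dHet cells (-0.61 to 1.58, adjusted p = 0.404) did not pass, and on scan day 2 alone the changes were -0.01 and -0.10. On none of the 10 arrays did the Folr1 probe at base 362 stand well above background.

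Folr2, the receptor found on macrophages and other myeloid cells, was well above background on 2 arrays, those of leukemias 686 and 713 on slide 2. Its levels were -4.30 and -3.57 in leukemia 686 and -3.35 and -3.40 in leukemia 713, but -5.22 and -6.35 in leukemia 760, against -6.17 and -6.27 in dHet pro-B and -6.21 and -6.37 in wt pro-B cells. The measured signal was higher in leukemias 686 and 713 than in leukemia 760 and the pro-B cells, but arrays not well above background have no settled order. The probe was not kept for the test, and in a fit of all 41174 probes its change was 1.92 ± 0.67 over wt cells (limma, adjusted p = 0.0774) and 1.85 ± 0.67 over dHet cells (adjusted p = 0.105).

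Summed macrophage markers were likewise highest in leukemias 686 and 713. The summed linear level of 12 measured macrophage genes, in units of the array's 75th percentile, was 78.0 and 104 in leukemia 686, 54.7 and 57.3 in leukemia 713 and 15.0 and 14.0 in leukemia 760, against 18.1 and 20.7 in dHet pro-B and 15.1 and 23.6 in wt pro-B cells. Of these 12 genes, 5 to 11 were well above background on a leukemia array, 2 or 3 on a dHet array and 10 on each wt array. The sums of dHet and wt arrays were alike all the same, so a few bright genes can carry such a linear sum. Against dHet pro-B cells 8 were higher and none lower, where 21.7% of all genes were higher and 24.5% lower. Against wt pro-B cells 3 were higher, 1 lower and 8 did not pass, where 31.3% of all genes were higher and 27.6% lower. Mrc1, counted as higher in both comparisons, was kept only through leukemias, and Cd163, the 1 lower, only through wt cells. For these 2 genes the filter itself favoured the called direction. All 6 leukemia arrays had Csf1r, the receptor of the macrophage growth factor, well above background, and none had Cd163, a scavenger receptor of resident macrophages. The part of macrophages in the Folr2 level was not tested.

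Folr4, now named Izumo1r, resembles the folate receptors but is known as the egg's receptor for sperm and is also found on regulatory T cells. Its levels were -3.83 and -2.82 in leukemia 686, -4.08 and -3.54 in leukemia 713, and -2.78 and -2.79 in leukemia 760, against -3.89 and -4.09 in dHet pro-B and -4.31 and -5.08 in wt pro-B cells. In measured level all 6 leukemia arrays were above both wt arrays. Only 4 of the 6 were well above background and no pro-B array was, so the order of the undetected arrays is not settled. The measured change over wt cells was 1.39 ± 0.36 (limma adjusted p = 0.0194), which for a probe kept only through leukemia 760 is a description. With the wt arrays at their lowest level well above background the leukemias were 1.74-fold higher. This is not a lower bound, because undetected leukemia arrays kept their measured level. Over dHet cells the change of 0.69 ± 0.36 did not pass (adjusted p = 0.169). The call over wt cells was lost with normexp (0.03, adjusted p = 0.936), in the authors' deposited table (0.25, adjusted p = 0.102), with slide as a random block (adjusted p = 0.108) and without replicate 2 of wt pro-B (1.00, adjusted p = 0.122).

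The summed level of 4 measured regulatory T cell genes was 8.36 to 14.5 on the leukemia arrays, against 8.20 and 8.91 in dHet pro-B and 6.38 and 6.61 in wt pro-B cells. All 4 were well above background on each leukemia array and 3 of them on each pro-B array, and against wt cells 2 were higher and 1 lower. Il2rb, 1 of the 2 higher, was well above background on no pro-B array and so was kept only through the leukemias. The defining gene Foxp3 had no kept probe, nor had Ctla4 and Ikzf2, and Lrrc32 was not measured here. For 11 measured T cell genes the sum was 16.8 to 91.4 in the leukemias, against 13.0 and 17.1 in dHet pro-B and 11.9 and 12.7 in wt pro-B cells. It was highest in leukemia 760. Of the 11 genes 4 were higher and none lower than in wt cells. Among all genes 31.3% were higher and 27.6% lower than in wt cells. The T cell genes were thus called higher at close to the general share, but their median change was 1.97, beside 0.06 over all genes. Against dHet cells 4 were higher and none lower, where 21.7% of all genes were higher and 24.5% lower. The median change there was 2.09, beside -0.06 over all genes. Cd3d, higher in both comparisons, was kept only through the leukemias. The part of T cells in the Folr4 level was not tested.

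**Figure D2:**
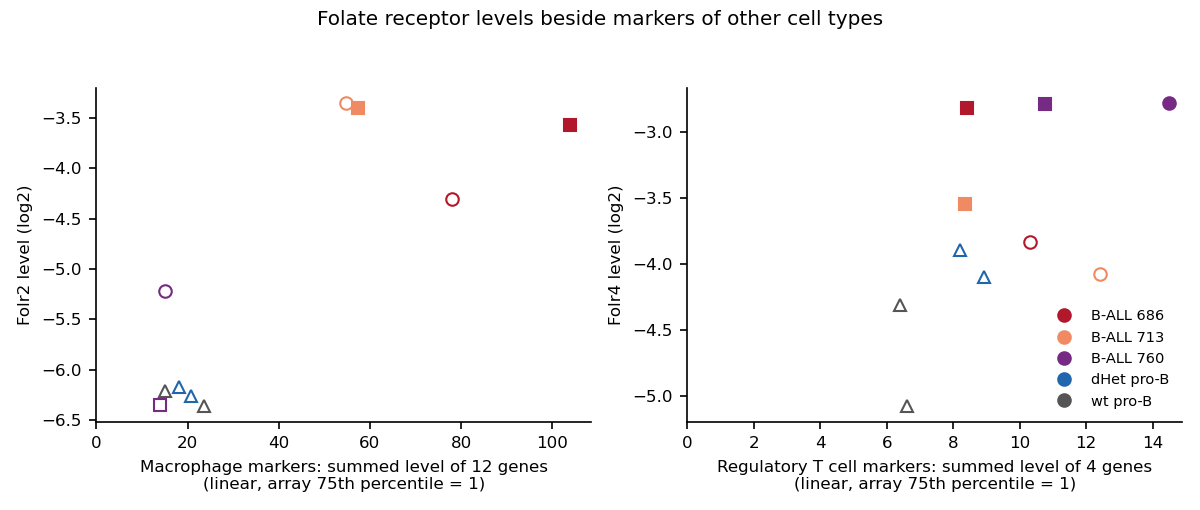
Level of Folr2 (left) and Folr4 (right) on each array (y axis, log2) against the summed linear level of 12 macrophage or 4 regulatory T cell marker genes on the same array (x axis, array's 75th percentile at 1), with circles, squares and triangles for slides 1, 2 and 3 and open markers where the receptor's probe was not well above background. The 4 arrays of leukemias 686 and 713 have macrophage sums of 54.7 to 104 and the highest Folr2 levels, between -4.30 and -3.35.

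Fpgs, the enzyme that adds the glutamate chain and so holds folate and methotrexate in the cell, was higher in all leukemias. Its levels were 4.32 and 3.55 in leukemia 686, 3.83 and 3.01 in leukemia 713, and 4.53 and 3.69 in leukemia 760, against 1.78 and 1.59 in dHet pro-B and 1.76 and 1.54 in wt pro-B cells. The lowest leukemia array was above the highest pro-B array, and the 2 kinds of pro-B cell overlapped. The change was 2.17 ± 0.23 over wt (4.51-fold, limma adjusted p = 8.75e-04) and 2.14 ± 0.23 over dHet cells (4.40-fold, adjusted p = 0.00164). On scan day 2 alone the changes were 1.77 and 1.73 and both passed (adjusted p = 0.00198 and 0.00366).

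Ggh, the hydrolase that cuts the glutamate chain, differed between leukemias. It was the only gene of the 7 tested to pass when each leukemia was compared with the other 2 without slide as a block. At base 1042 its levels were 0.79 and 0.50 in leukemia 686, -2.59 and -3.67 in leukemia 713, and -0.26 and -0.25 in leukemia 760, against -0.74 and -0.54 in dHet pro-B and -1.50 and -1.18 in wt pro-B cells. At base 613 they were -0.94 and -0.48 in leukemia 686, -3.48 and -4.50 in leukemia 713, and -0.97 and -1.17 in leukemia 760, against -2.00 and -1.66 in dHet pro-B and -2.56 and -2.32 in wt pro-B cells. At both probes leukemias 686 and 760 lay above all pro-B arrays and leukemia 713 below them. The base 613 probe was not well above background on either array of leukemia 713.

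Over all 3 leukemias the Ggh changes were 0.43 ± 1.06 and 0.52 ± 0.97 against wt cells (limma, adjusted p = 0.745 and 0.669) and -0.27 ± 1.06 and -0.10 ± 0.97 against dHet cells (adjusted p = 0.849 and 0.942). At base 1042 the 95% interval against wt cells ran from -2.17 to 3.04, so the mean says little in either direction. These values turned on which mice were included. Without leukemia 686 the changes were -0.35 and -0.09 against wt cells and -1.05 and -0.70 against dHet cells, and none passed (adjusted p = 0.773, 0.944, 0.405 and 0.581). Without leukemia 760 they were 0.10 and 0.09 against wt cells and -0.60 and -0.52 against dHet cells, and none passed (adjusted p = 0.947, 0.948, 0.701 and 0.700). Without leukemia 713, Ggh was higher than in wt cells at both probes (1.54 at base 1042, adjusted p = 0.0123, and 1.55 at base 613, adjusted p = 0.00258), and against dHet cells the changes were 0.84 (adjusted p = 0.0868) and 0.94 (adjusted p = 0.0163). That fit called 6728 of 22302 probes higher and 7594 lower against wt cells, and 4983 higher and 6981 lower against dHet cells. Leukemia 713 was the lowest in Ggh, so the calls without it are a description.

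**Figure D3:**
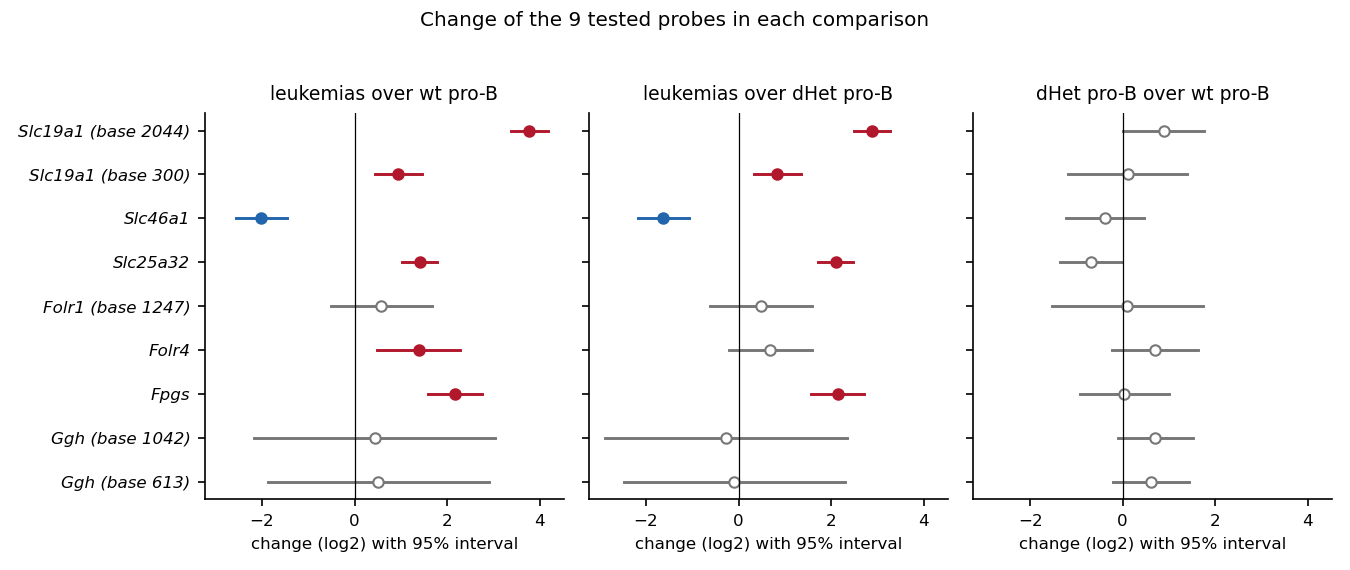
Change of the 9 tested probes (x axis, log2, with 95% intervals as bars) for leukemias over wt pro-B, leukemias over dHet pro-B and dHet over wt pro-B. Filled points passed an adjusted p of 0.05 and open points did not; the widest intervals in the first 2 panels are those of the Ggh probes, with -2.17 to 3.04 at base 1042 against wt cells.

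When each leukemia was set against the other 2, over all 10 arrays and without slide as a block, only Ggh probes passed. Each leukemia is 1 mouse with 2 arrays, so these p-values set a difference between mice against the spread between arrays of a group, and leave out how much mice of a kind vary. In leukemia 713, Ggh at base 1042 was lower by -3.32 ± 0.30 (10.0-fold, limma adjusted p = 0.00109). At base 613 its measured signal was 8.58-fold lower (-3.10 ± 0.31, adjusted p = 0.00148), with neither array of leukemia 713 well above background. These were 2 of 9 probes lower and none higher, where 5.13% of all probes were lower and 7.1% higher. The size depended on the processing: with normexp the differences were -1.87 (adjusted p = 0.0265) and -1.50, which no longer passed (adjusted p = 0.0774), and in the authors' deposited table -1.40 and -0.98. In leukemia 686 both Ggh probes were higher (2.34 ± 0.30 at base 1042, adjusted p = 0.0121, and 1.82 ± 0.31 at base 613, adjusted p = 0.0291), where 1.21% of all probes were higher and 1.75% lower. Both calls were lost with normexp (1.26 and 0.80, adjusted p = 0.281 and 0.893), with no filter on dim probes (adjusted p = 0.0709 and 0.117) and without replicate 1 of leukemia 686 (adjusted p = 0.0518 and 0.0626), and the base 613 call was lost in 12 of 19 alternatives. In leukemia 760 the base 613 probe was higher (1.28 ± 0.31, adjusted p = 0.0432) and the base 1042 probe did not pass (0.99 ± 0.30, adjusted p = 0.0974), where 4.31% of all probes were higher and 5.34% lower. The base 613 call was likewise lost in 12 of 19 alternatives, among them normexp (0.71, adjusted p = 0.408), the authors' deposited table (0.38, adjusted p = 0.120) and the replicate block (adjusted p = 0.0538). These 3 comparisons use the same 6 leukemia arrays, and leukemia 713 is part of what leukemias 686 and 760 were set against, so they are not separate evidence.

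Leukemia 713 was the lowest in Ggh on both slides. On slide 1 the base 1042 level was -2.59 in leukemia 713, against 0.79 and -0.26 in leukemias 686 and 760, and on slide 2 it was -3.67, against 0.50 and -0.25. With slide as a block the call count in leukemia 713 was 5 lower, since Fpgs (-0.60, adjusted p = 0.0100), Slc19a1 at base 2044 (-0.36, adjusted p = 0.0425) and Slc46a1 (-0.55, adjusted p = 0.0407) then passed beside both Ggh probes, at a background of 13.3% of all probes lower. In leukemia 760 it was 3 higher with that block, both Ggh probes and Fpgs (0.44, adjusted p = 0.0368), at a background of 10.7%. Apart from Ggh these called differences were at most 0.60 on the log2 scale, smaller than the change of the same gene between leukemias and pro-B cells. Marker sums that also differed between leukemias were those of erythroid genes (216 and 386 in leukemia 713, against 3.48 to 23.5 in leukemia 686 and 60.3 to 121 in leukemia 760) and of stromal genes (2.09 and 2.28 in leukemia 713, against 0.522 and 0.541 in leukemia 686 and 0.322 and 0.426 in leukemia 760). Neutrophil and granule genes summed to 20.6 and 28.9 in leukemia 686, against 1.13 and 3.41 in leukemia 713 and 0.357 and 0.986 in leukemia 760. Against wt cells, where 31.3% of all genes were higher and 27.6% lower, none of the 5 measured erythroid genes passed. Against dHet cells, where 21.7% of all genes were higher and 24.5% lower, 4 erythroid genes were higher and 1 lower. Of the 5 stromal genes 1 was higher and 1 lower against wt cells, and 1 was higher and none lower against dHet cells. Dcn, the 1 stromal gene higher against wt cells, was kept only through a leukemia. Epor, the 1 erythroid gene lower against dHet cells, was kept only through the dHet cells. The part of erythroid, stromal or neutrophil cells in the Ggh level was not tested.

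**Figure D4:**
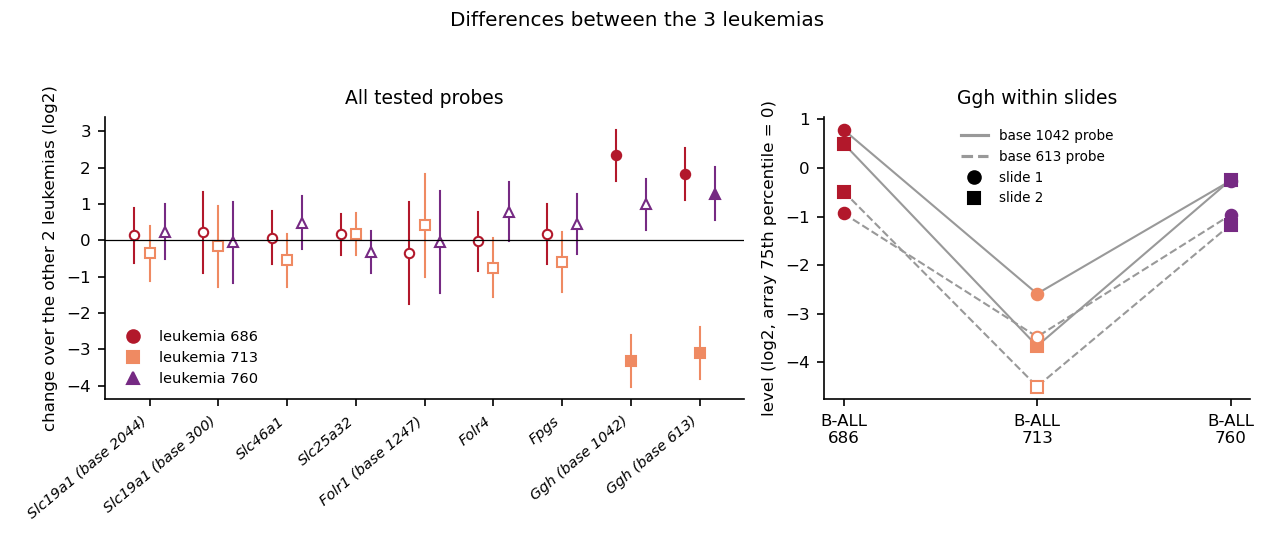
Left, change of each tested probe in 1 leukemia over the other 2 (y axis, log2, with 95% intervals), filled where it passed. Right, the Ggh levels of the 3 leukemias joined within a slide, where leukemia 713 is lowest for both probes on both slides, with -2.59 and -3.67 at base 1042 (solid lines).

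Between the pro-B groups, none of the 9 probes passed over all 10 arrays, where 13.9% of all probes were higher and 13.2% lower in dHet than in wt cells (limma). That fit shares 1 spread among the 5 groups, so differences between the 2 slides of the leukemia arrays enter it, while the pro-B arrays shared a slide. For Slc19a1 at base 2044 the SD between arrays was 0.38, 0.58 and 0.58 in leukemias 686, 713 and 760, against 0.03 in dHet and 0.05 in wt cells. Slc19a1 at base 2044 was at 1.46 and 1.50 in dHet cells, against 0.63 and 0.56 in wt cells (0.89 ± 0.37, adjusted p = 0.122), and Slc25a32 was at -1.28 and -1.18, against -0.59 and -0.48 (-0.69 ± 0.28, adjusted p = 0.116). Both had an unadjusted p under 0.05 (0.0468 and 0.0438), as no other of the 9 had. Within each of these carriers the measured levels of the 2 groups did not overlap, but neither did those of Slc46a1, Folr4 and the Ggh probes. Folr4 was well above background on no pro-B array, so the order of its levels is not settled. The share of all probes without overlap was not computed, so the lack of overlap is a description only.

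These pro-B calls depend on the spread the values are set against. With slide as a block, Slc19a1 was 1.85-fold higher in dHet cells (adjusted p = 0.00174) and Slc25a32 1.61-fold lower (adjusted p = 0.00451), at a background of 27.8% of all probes higher and 21.8% lower. On scan day 2 alone, both passed again (adjusted p = 0.00260 and 0.00669), and so did Ggh at base 1042 (0.70, adjusted p = 0.0196), Ggh at base 613 (0.61, adjusted p = 0.0343) and Slc46a1 (-0.39, adjusted p = 0.0471), at a background of 31.7% higher and 26.5% lower. Fpgs, at 0.04 ± 0.41 (95% interval -0.92 to 0.99), passed in neither setting (adjusted p = 0.835 and 0.838).

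The enzymes that use folate are the next step of the pathway, and most of those measured were higher in the leukemias. Of 20 measured genes, 13 were higher, 2 lower and 5 did not pass against wt pro-B cells, where 31.3% of genes were higher and 27.6% lower at their main probe. Their median change was 1.15, beside 0.06 over all genes. Shmt1, the cytosolic serine hydroxymethyltransferase, was higher by 3.24 ± 0.28 (limma adjusted p = 5.00e-04). Sardh, which feeds one-carbon units from sarcosine to mitochondrial folate, was at least 7.86-fold higher (measured change 3.98 ± 0.43, adjusted p = 8.87e-04), but it was well above background on no pro-B array and so was kept only through the leukemias. The lower ones were Aldh1l1, which oxidises formyl-folate, at least 2.33-fold lower (-2.63 ± 0.44, adjusted p = 0.00389), and Gnmt, a folate-binding glycine methyltransferase (-1.35 ± 0.23, adjusted p = 0.00406). Aldh1l1 was well above background on the wt arrays only and so was kept only through them. The counts above for the 20 genes include Sardh and Aldh1l1, for which the filter itself favoured the called direction. Against dHet pro-B cells 11 were higher, none lower and 9 did not pass (limma, where 21.7% of genes were higher and 24.5% lower), with a median of 0.86 beside -0.06 over all genes. In dHet against wt pro-B cells 4 were higher, 1 lower and 15 did not pass (15.6% of genes higher and 14.2% lower).

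Of the efflux pumps that carry folates or antifolates, 4 were measured. Among all genes 31.3% were higher and 27.6% lower against wt cells, and 21.7% were higher and 24.5% lower against dHet cells. Abcc1 (2.75 ± 0.26, limma adjusted p = 6.33e-04) and Abcc4 (1.66 ± 0.21, adjusted p = 0.00139) were higher than in wt cells, and the other two, Abcc5 and Abcg2, did not pass. Both were higher than in dHet cells too (Abcc1 by 0.98 ± 0.26 and Abcc4 by 3.73 ± 0.21), and there Abcc5 was lower (-1.05 ± 0.17, adjusted p = 0.00490). Of 3 measured relatives of the SLC19 and SLC46 carriers, Slc46a2 (-2.12 ± 0.36, adjusted p = 0.00381) and Slc46a3 (-1.89 ± 0.34, adjusted p = 0.00510) were lower than in wt cells, as was Slc46a1, and the thiamine carrier Slc19a2 did not pass (-0.06 ± 0.21, adjusted p = 0.826). Of the 6 leukemia arrays only 2 had Slc46a2 well above background, and its probe was kept only through the wt cells, so its call is a description.

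Of 4 measured genes of other folate uptake, 2 passed as higher than in wt cells, 1 as lower and 1 did not pass. Among all genes 31.3% were higher and 27.6% lower. Each of the 4 was kept only through 1 group, so the filter shaped these calls and the count is a description. The higher ones were Izumo1r, which is Folr4 under its present name and so was already counted above, and Slco1b2. For Slco1b2 only 1 of 6 leukemia arrays and no wt array was well above background, so no fold is given and the direction is not settled. Slco1b2, an organic anion transporter of liver cells that also carries antifolates, was well above background on both dHet pro-B arrays and on no wt array. It was at least 106-fold higher in the dHet cells (8.63 ± 0.17, limma adjusted p = 2.58e-06). The probe was kept only through the dHet cells, so this comparison and the next are descriptions. In the leukemias it was lower than in dHet cells (adjusted p = 4.33e-04), by an amount that the undetected arrays do not settle. Cubn, an endocytic receptor of kidney and gut, was lower in the leukemias than in wt cells (limma adjusted p = 0.00735). It stood well above background on a single leukemia array of 6, so the size is not settled. Its probe was kept only through the wt cells, so this call is a description. Of 8 measured neutrophil and granule markers 7 were lower in the leukemias than in wt cells, where 27.6% of all genes were lower. Camp, 1 of these 7, was kept only through the wt cells, so there the filter favoured a lower call. The sums of the 8 markers were 0.357 to 28.9 in the leukemias, against 65.0 and 133 in wt cells, and their part in the Cubn level was not tested.

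The genes nearest to each member in the shape of their 5 group means, by the root mean square difference of centred levels among 12146 genes, are given as a description. For Slc19a1 they were Dctd (0.11), Agpat2 (0.15) and Steap3 (0.16). For Slc46a1 they were Pgm2l1 (0.10), 1500035N22Rik (0.13) and Zbtb37 (0.13), and for Slc25a32 Polr1e (0.10), Atf6b (0.11) and Nudcd1 (0.12). Fpgs was nearest to 9930014A18Rik (0.09), Cluh (0.11) and Mmachc (0.12). For Ggh the nearest were Myo10 (0.25), Adarb1 (0.25) and Ppfibp1 (0.31), all farther off than the nearest genes of the other members named here.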

How the data were processed

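RNA of 10 samples was hybridised to 1-colour mouse arrays, and per the file headers the deposited scanner files hold spot intensity from Agilent Feature Extraction 10.5.1.1 (9.1 in the submitters' processing notes), with probe positions on mm9. The authors' deposited value table holds log2 values whose processing is not given in the sources used here; its column medians were 6.83 to 6.85, and its direction and scale were read from its correlation with the scanner values (0.927 to 0.974 with the log2 processed signal, 0.937 to 0.999 with normexp-corrected values).

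The processed signal was scaled to the array's 75th percentile over non-control probes and put on a log2 scale, and spots of a probe were averaged. A probe was kept if well above background, in at least 0.5 of its spots, on all arrays of a group. Of the probes, 28223 were named by accession, 5394 by symbol and 349 by synonym through RefSeq's gene table, and 7208 kept the file's name. limma 3.58.1 (R 4.3.3) was fitted over all kept probes, with Benjamini-Hochberg adjustment and a two-sided threshold of 0.05. Leukemias and pro-B cells were compared over 7 samples (3 leukemia mouse means and 4 pro-B arrays, 4 residual degrees of freedom), and the other comparisons over 10 arrays in 5 groups (5 residual degrees of freedom). The fit was run on simulated arrays with known changes and independent noise. These had no slide or mouse effects, so they test the calculation only. The number of arrays limits the precision. A fold marked "at least" sets the brighter group's mean against the dim group's arrays at their lowest level well above background, or at the probe's own level where higher. Such a fold holds for the main background method only.

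Each gene's main probe is its brightest kept one. Every member is named, with, from lists of folate enzymes, efflux pumps, other uptake genes, carrier relatives and cell type markers, mainly the 2 largest passing changes in each direction against wt cells. The genes and lists were chosen with earlier results of these data known, and some genes of the marker lists were named after their values were seen. Same-numbered leukemia arrays deviated together from their group means (r of 0.54, 0.44 and 0.63 between leukemias), and for leukemias the number is the slide, while other pairs of groups had r of -0.04 to 0.08. Alternatives covered background, scaling, filter, block, deposited table and left-out arrays or mice; scan day 2 alone, and a floor for undetected arrays (the lowest level scored as well above background on that array), were added after seeing the data.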

Additional observations from a re-analysis of the deposited data

Results flagged for a closer look

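Ggh differed between leukemias by the test of each leukemia against the other 2, at 5 of the 6 values computed for its 2 probes. At base 1042 the difference was 2.34 in leukemia 686 and -3.32 in leukemia 713. At base 613 it was 1.82 in leukemia 686, -3.10 in leukemia 713 and 1.28 in leukemia 760 (all on the log2 scale, limma over 10 arrays). No other of the 9 tested probes passed in this fit. With slide as a block, Fpgs, Slc19a1 at base 2044 and Slc46a1 also passed as lower in leukemia 713, and Fpgs as higher in leukemia 760. Groups of 2 arrays or 3 mice are too small for a check of single far-off samples.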

How the results depend on the processing

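Of 16 changes of single probes that passed, 389 values were computed under alternatives: 339 passed again in the same direction, 50 no longer passed and none changed sign. Of 38 that had not passed, 32 of 820 values passed in the same direction, and 1 passed in the opposite one: Ggh at base 613 over dHet cells, 0.94 without leukemia 713, against -0.70 without leukemia 686. Slc19a1 (base 2044), Slc25a32 and Fpgs passed against both kinds of pro-B cell under the alternatives run.

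Against wt cells the 5 probes higher became 3 with normexp, with scaling on the probes detected on every array, with only such probes tested, and with slide as a random block (3 to 7 when 1 replicate or mouse was left out), and the 1 lower became 0 with only such probes (1 to 1). Against dHet cells the 1 lower became 0 with normexp and with only such probes (1 to 1), and the 4 higher were 3 to 5 with 1 left out. Folr4 passed over dHet cells when scan day was a block (0.94, adjusted p = 0.0356) and with undetected arrays raised to the lowest level well above background (1.07, adjusted p = 0.0349).

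In dHet over wt cells, 0 were higher: 2 in the deposited table, 1 with the replicate block and with slide or scan day as a block, then 3 on scan day 2 alone (0 to 1 with 1 left out). None was lower: 1 with scaling on the probes detected on every array and with slide or scan day as a block, and 2 on scan day 2 alone (0 to 0). In leukemia 686, 2 higher became 0 with normexp and with no filter, and 1 with quantile normalization, array median scaling, only probes detected on all arrays and 1 probe per gene (0 to 2). In leukemia 713, 2 lower became 1 with normexp, only probes detected on all arrays and 1 probe per gene, and 5 with slide or scan day as a block (2 to 2). In leukemia 760, 1 higher became 0 with normexp, quantile normalization, the deposited table, no filter, only probes detected on all arrays, 1 probe per gene and the replicate block, and 3 with slide or scan day as a block (0 to 2). Testing 1 probe per gene or only probes detected on all arrays leaves fewer probes by construction; for the rest the cause was not tested.

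Scaling moved all probes: against wt cells the median change was -0.07, with 47.2% of calls higher, but 0.49 and 69.8% with array median scaling and -0.44 and 29.9% with scaling on the probes detected on every array. Against dHet cells it was -0.15 and 41.4%, then 0.06 and 56.0%, and -0.29 and 32.7%. In dHet over wt cells it was 0.10 and 51.3%, then 0.45 and 63.9%, and -0.13 and 37.8%. Dim probes (Folr1, Folr2, Folr4, Slc46a1 and Slc19a1 at base 300) are limited by signal over background.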
